A study of Bos taurus with 27 samples.

Results

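Amino acid transporters of the solute carrier (SLC) families 1, 3, 6, 7, 15, 32, 36, 38 and 43 were described in the rumen epithelium (RE) of fattening cattle. Members were all non-control probes of the array whose gene name was one of these family names followed by a member number, which gave 57 genes with 1 probe each, of 14952 gene names and 15008 probes in all. The same 9 castrated Japanese Black bulls, each fitted with a rumen fistula, were biopsied once in each fattening stage, aged 14 months (early), 21 months (middle) and 29 months (late). They were fed concentrate and rice straw throughout, with concentrate forming the larger part of the diet at every stage, and the biopsy came from the ventral sac beside the ruminal pH sensor. There was no group on another diet and none of another age at the same stage, so age, diet, body weight and stage cannot be told apart. Total RNA was labelled with cyanine 3 and hybridized to a custom bovine Agilent array, 1 array per animal and stage (27 arrays). The middle stage was compared with the early stage (first period), the late with the middle stage (second period) and the late with the early stage (total period), within animals.

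Amino acids and short peptides cross cell membranes through these proteins. SLC15 members carry dipeptides and tripeptides with protons, SLC1 members carry glutamate or small neutral amino acids, SLC6 members couple amino acids, neurotransmitters and related compounds to sodium and chloride, and SLC7 light chains exchange amino acids once bound to an SLC3 heavy chain. Some SLC36 members are proton-coupled, SLC38 members carry glutamine and other neutral amino acids with sodium, and some SLC36 and SLC38 members sit on lysosomes, where they take part in nutrient sensing. The RE is a stratified epithelium best known for absorbing volatile fatty acids, and part of the peptides and amino acids released by rumen microbes can also be taken up across it.

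A level here is the log2 of a spot's background-corrected intensity minus the log2 of its array's median, so 0 is the median probe of an array and a change of 1 is 2-fold. Levels of different probes are not comparable with each other. Changes are given as log2 change ± SE from limma with the animal as a block, and adjusted *P* is limma's Benjamini-Hochberg value over 15008 probes, called when below 0.05. Because the biopsies are bulk tissue, fewer cells of a type and less RNA per cell cannot be told apart.

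Of the 57 members, 27 were well above background on all 9 arrays of at least 1 stage, and 18 of these on all 27 arrays. Another 16 were above background on some arrays only (SLC15A3, SLC1A1, SLC1A3, SLC32A1, SLC36A3, SLC38A1, SLC38A5, SLC6A12, SLC6A16, SLC6A2, SLC6A5, SLC7A1, SLC7A10, SLC7A14, SLC7A2 and SLC7A4). The remaining 14 were not well above background on any array: SLC1A6, SLC38A4, SLC38A11, SLC3A1, SLC6A6, SLC6A7, SLC6A11, SLC6A15, SLC6A17, SLC6A18, SLC7A3, SLC7A6, SLC7A9 and SLC7A11, the last being the light chain of the cystine-glutamate exchanger. No member was saturated or missing on any array. SLC36A1, the lysosomal proton-coupled transporter, was not analysed here.

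All member probes were 60 bases long, and no pair among the 1596 pairs of member probes shared a run of more than 12 bases. The median GC content was 43.3% for the 27 detected members and 44.2% for the other 30. The probes of the members whose levels carry the comparisons below are shown as the array lists them, 5′ to 3′ and in lower case throughout, with their positions on UMD 3.1 (bosTau6), the build named in the array files. Whether a probe lies in coding or untranslated sequence is not given there. The SLC38A9 probe maps to a stretch of 1243 bases and so crosses at least 1 intron.
SLC6A8 (chrX:39834545-39834604, + strand): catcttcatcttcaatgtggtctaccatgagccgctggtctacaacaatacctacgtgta
SLC15A4 (chr17:49364912-49364971, + strand): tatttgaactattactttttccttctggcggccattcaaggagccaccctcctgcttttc
SLC1A4 (chr11:63362143-63362202, + strand): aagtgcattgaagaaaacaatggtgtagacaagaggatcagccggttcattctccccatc
SLC38A9 (chr20:23557669-23558911, + strand): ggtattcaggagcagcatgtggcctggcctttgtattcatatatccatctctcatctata
SLC6A13 (chr5:107685069-107685128, - strand): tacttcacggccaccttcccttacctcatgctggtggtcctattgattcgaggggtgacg
SLC1A7 (chr3:93724341-93724400, + strand): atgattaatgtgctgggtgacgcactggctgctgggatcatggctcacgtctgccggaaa
SLC6A16 (chr18:56225132-56225191, - strand): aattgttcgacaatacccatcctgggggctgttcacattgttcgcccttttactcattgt

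The arrays of the middle stage were dimmer than the others. The median signal of an array ranged from 34.5 to 47.5 at the early stage, from 8.05 to 28.1 at the middle stage and from 31.4 to 45.9 at the late stage, and the share of probes well above background from 68.8% to 78.1%, from 48.5% to 71.5% and from 68.4% to 73.7%. Of 2040 probes that were above background on no array, 97.7% were called higher in the first period, with a median change of 1.33, and 97.8% lower in the second, with a median change of −1.39. The late-stage arrays shared no slide and no scan day with the other stages, so stage and slide cannot be told apart in the second and total periods. The first scan day held 8 early arrays on slide 1 and 1 early and 7 middle arrays on slide 2. In the first period only that 1 early array shared a slide with middle-stage arrays, so stage and slide can hardly be told apart there either. The tissue label names RE, although the extraction note in the sample records speaks of neutrophils and liver. All 14 stratified epithelium markers on the array were above background on every early and late array and 11 of them on every middle array. Of 12 leukocyte markers, 9 were above background on every early array, 5 on every middle and 8 on every late array, and CD4 and ITGAM were above background on none.

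In the first period 38 of 57 members (66.7%) were called, against 66.5% of all probes. 32 members were called higher (56.1%, against 45.3% of all probes) and 6 lower (10.5%, against 21.3%). Among the 32, 22 lacked a stage with all 9 arrays above background, and 15 were above background on none of the 18 arrays compared. The 14 members never above background all moved the same way, with changes of 1.07 to 1.54 in the first period and −1.61 to −0.83 in the second, in the range of the never-detected probes of the whole array. Their direction is therefore not counted below as a change of the transporter. With a change of at least 2-fold also required, 21 members were higher (against 23.9% of all probes), of which SLC7A8 was the only detected one, and SLC6A8 and SLC1A4 were lower (against 7.58%). The other 16 had first-period changes of −0.36 to 1.82, with 8 called higher and 0 lower, and second-period changes of −2.07 to 0.16, with 0 called higher and 10 lower. The shares called over all probes were 45.3% higher and 21.3% lower in the first period and 27% and 44.6% in the second.

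**Figure D1:**
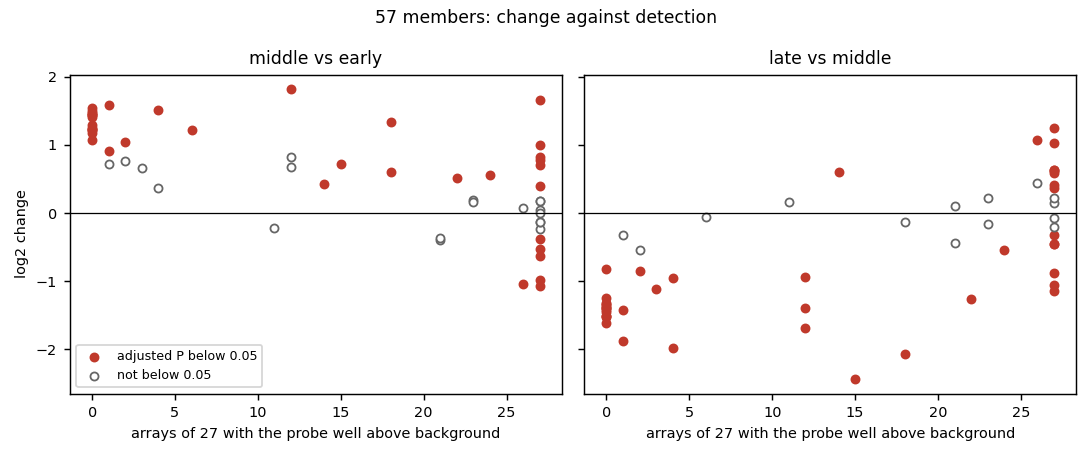
Log2 change of each of the 57 members (y axis) against the number of the 27 arrays on which its probe was well above background (x axis), for the first period on the left and the second on the right; filled points have an adjusted *P* below 0.05. All 14 members at 0 arrays lie between 1.07 and 1.54 on the left and between −1.61 and −0.83 on the right, while members on all 27 arrays lie on both sides of 0.

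Among the 27 detected members, 10 were called higher and 6 lower in the first period, against 30.9% and 30.8% of the 10165 probes detected in the same way. Passing in 1 stage was enough to enter this set, so the counts are a description. The 6 lower members were SLC6A8, SLC1A4, SLC15A4, SLC38A10, SLC38A9 and SLC3A2. The 10 higher members were SLC7A8, SLC36A4, SLC38A3, SLC43A3, SLC1A7, SLC6A13, SLC38A7, SLC36A2, SLC15A2 and SLC43A2, and 6 of these were above background on all 18 arrays. In the second period 10 detected members were called higher and 9 lower, against 39.0% and 27.9% of those probes. Both periods use the same middle-stage arrays, so the values of a member in the first and second period are not independent of each other.

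**Figure D2:**
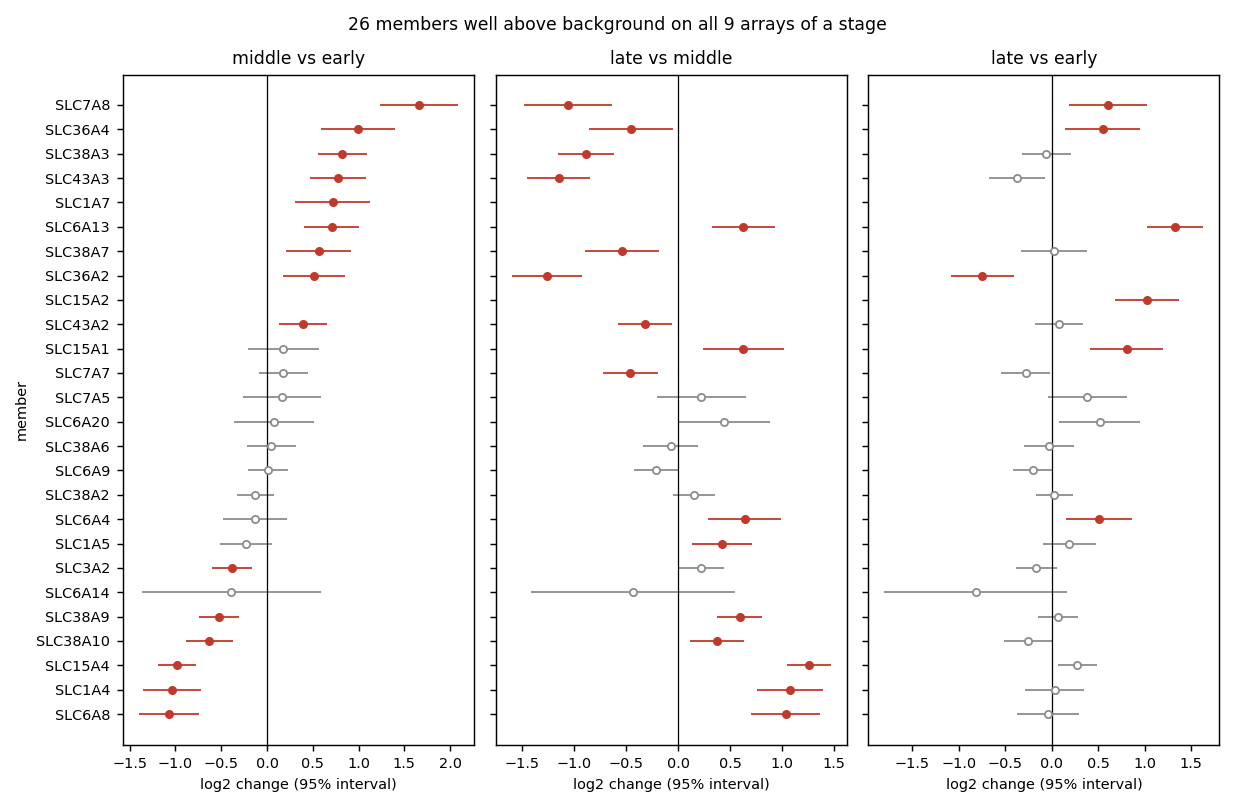
Log2 change with its 95% interval (x axis) for 26 detected members (y axis, ordered by the first-period change) in the 3 comparisons; red filled points have an adjusted *P* below 0.05, and comparisons with a stage in which the probe was above background on no array (SLC1A7 late, SLC15A2 middle) are left out. SLC6A8, SLC1A4 and SLC15A4 lie near −1 on the left and at or above 1 in the middle panel, and SLC6A13 is the highest point of the right panel at 1.33.

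The peptide transporters moved in different ways. SLC15A4, a lysosomal carrier of histidine and small peptides, had levels of 0.71 to 1.21 early (median 1.04), −0.28 to 0.29 in the middle stage (median 0.00) and 1.101 to 1.58 late (median 1.28). The middle-stage levels lay below every level of the other stages, and all 9 animals fell in the first period and rose in the second. The first-period change was −0.98 ± 0.10 (adjusted *P* = 3.08e-07) and the second-period change 1.26 ± 0.10 (adjusted *P* = 6.00e-09). Between the late and early stages it was 0.27 ± 0.10 (adjusted *P* = 0.0592, higher in 8 of 9 animals).

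SLC15A1 (PEPT1), the proton-coupled peptide carrier best known from the small intestine, had levels of 1.59 to 3.38 early (median 2.98), 1.67 to 3.78 in the middle stage (median 3.04) and 2.73 to 4.26 late (median 3.60). The 3 stages overlapped, and the late stage held the highest levels. The first-period change of 0.18 ± 0.19 did not pass the threshold (adjusted *P* = 0.406), whereas SLC15A1 was 0.63 ± 0.19 higher in the second period (adjusted *P* = 0.00573) and 0.81 ± 0.19 higher over the total period (adjusted *P* = 0.00488, 8 of 9 animals).

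The probe named SLC15A2 (PEPT2) was above background on 5 early, 0 middle and 9 late arrays, with levels of −3.15 to −2.36 early (median −2.62) and −2.28 to −0.27 late (median −1.72). Every late level was above every early level, and the total-period change was 1.03 ± 0.16 (adjusted *P* = 1.93e-04). Its middle stage gives only a limit: the late stage was at least 1.02-fold higher, and no size can be given for the first period although the fit called it (adjusted *P* = 0.0285, lost without animal 1, 3, 4 or 8). With normexp background correction the total-period change was 0.13 and did not pass. The identity of this probe is uncertain, since current RefSeq (ARS-UCD2.0) gives its accession to LOC506921, a locus separate from SLC15A2.

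In the SLC1 family, SLC1A4 (ASCT1), a carrier of alanine, serine and cysteine, had levels of −0.05 to 1.58 early (median 0.56), −0.99 to 0.02 in the middle stage (median −0.43) and 0.29 to 1.32 late (median 0.54). The middle stage was lower in all 9 animals than the early stage, with slight overlap, and lay wholly below the late stage. The first-period change was −1.04 ± 0.15 (adjusted *P* = 1.37e-05) and the second 1.07 ± 0.15 (adjusted *P* = 5.38e-06), and the late and early stages differed by 0.03 ± 0.15 (95% interval −0.28 to 0.35). SLC1A5 (ASCT2), the main glutamine carrier of many growing cells, had levels of 6.62 to 7.41 early (median 6.82), 5.58 to 7.21 in the middle stage (median 7.00) and 6.60 to 7.36 late (median 7.19). The stages overlapped. Its second-period change of 0.42 ± 0.14 was called (adjusted *P* = 0.0102) but became 0.23 and was not called with 75th percentile scaling, and the first-period change was −0.23 ± 0.14 (adjusted *P* = 0.142).

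SLC1A7 (EAAT5), a glutamate transporter with a chloride conductance known from retina, had levels of −2.48 to −1.73 early (median −2.16) and −2.01 to −0.54 in the middle stage (median −1.45), and was above background on 9 early, 6 middle and 0 late arrays. The late stage therefore gives only a limit, computed under median scaling. SLC1A7 was at least 3.65-fold lower than at the middle stage (adjusted *P* = 6.51e-09), whose mean includes arrays not above background. Probes above background on no array had a median second-period change of −1.39. SLC1A7 was at least 2.22-fold lower than at the early stage (adjusted *P* = 5.41e-06), a call lost with normexp background correction. The late-stage measurement was the lower one in all 9 animals in both comparisons. The first-period change was 0.72 ± 0.20 (adjusted *P* = 0.00356), which turned to −0.26 under cyclic loess scaling. SLC1A1 (EAAT3), the glutamate and cysteine carrier, was above background on 1 early array only.

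SLC3A2 (4F2hc), the heavy chain that brings several SLC7 light chains to the plasma membrane, had levels of 4.93 to 5.44 early (median 5.19), 4.50 to 5.27 in the middle stage (median 4.75) and 4.77 to 5.22 late (median 5.05). The middle stage was lower in 8 of 9 animals, with overlap. The first-period change was −0.39 ± 0.11 (adjusted *P* = 0.00347), and the second-period change of 0.22 ± 0.11 missed the threshold (adjusted *P* = 0.0641) but passed without animal 9 (0.31, adjusted *P* = 0.00598).

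Among its light chains in the SLC7 family 3 were detected. Of these, 1 was called higher in the first period, 2 lower in the second and 1 higher over the total period. SLC7A8 (LAT2), an exchanger of neutral amino acids, had levels of −0.49 to 0.43 early (median 0.01), 0.83 to 2.88 in the middle stage (median 1.66) and 0.27 to 0.97 late (median 0.57). Every middle-stage level exceeded every early-stage level, and all 9 animals rose and then fell. The first-period change was 1.66 ± 0.20, or 3.16-fold (adjusted *P* = 2.25e-06), the largest rise among the detected members, and the second-period change was −1.05 ± 0.20 (adjusted *P* = 1.37e-04). Over the total period SLC7A8 was 0.61 ± 0.20 higher (adjusted *P* = 0.0399, 8 of 9 animals), a call that was lost without animal 1, 2, 3, 5, 6, 7 or 8.

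SLC7A7 (y+LAT1), which releases cationic amino acids from epithelial cells, had levels of 0.60 to 1.54 early (median 0.81), 0.64 to 1.29 in the middle stage (median 1.05) and 0.36 to 0.85 late (median 0.55). All 9 animals fell in the second period (−0.46 ± 0.13, adjusted *P* = 0.00327), with overlap between stages. The first-period change of 0.18 ± 0.13 was not called (adjusted *P* = 0.220) but was without animal 9 (0.31, adjusted *P* = 0.00759), which held the early-stage maximum. The SLC7A7 and SLC7A8 probes lie 262 kb apart on chromosome 10 on the same strand. SLC7A5 (LAT1), the leucine exchanger that feeds mTORC1, changed by 0.16 ± 0.20, 0.22 ± 0.20 and 0.39 ± 0.20 over the first, second and total periods, none of them called (adjusted *P* = 0.491, 0.330 and 0.197). It was above background on 9 early, 5 middle and 9 late arrays. Its late levels lay above all early levels (−1.12 to −0.22 against −1.33 to −1.12), and without animal 8 the second-period and total-period changes passed (0.46, adjusted *P* = 0.00565, and 0.40, adjusted *P* = 0.0433).

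In the SLC6 family, SLC6A8, the creatine transporter, had levels of 4.14 to 5.29 early (median 4.56), 2.68 to 4.12 in the middle stage (median 3.69) and 4.32 to 4.91 late (median 4.60). All middle-stage levels were below all levels of both other stages. The first-period change was −1.07 ± 0.16, a 2.10-fold fall (adjusted *P* = 1.65e-05, 9 of 9 animals), the second 1.03 ± 0.16 (adjusted *P* = 1.39e-05, 9 of 9 animals), and the late stage differed from the early stage by −0.04 ± 0.16 (95% interval −0.37 to 0.29).

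**Figure D3:**
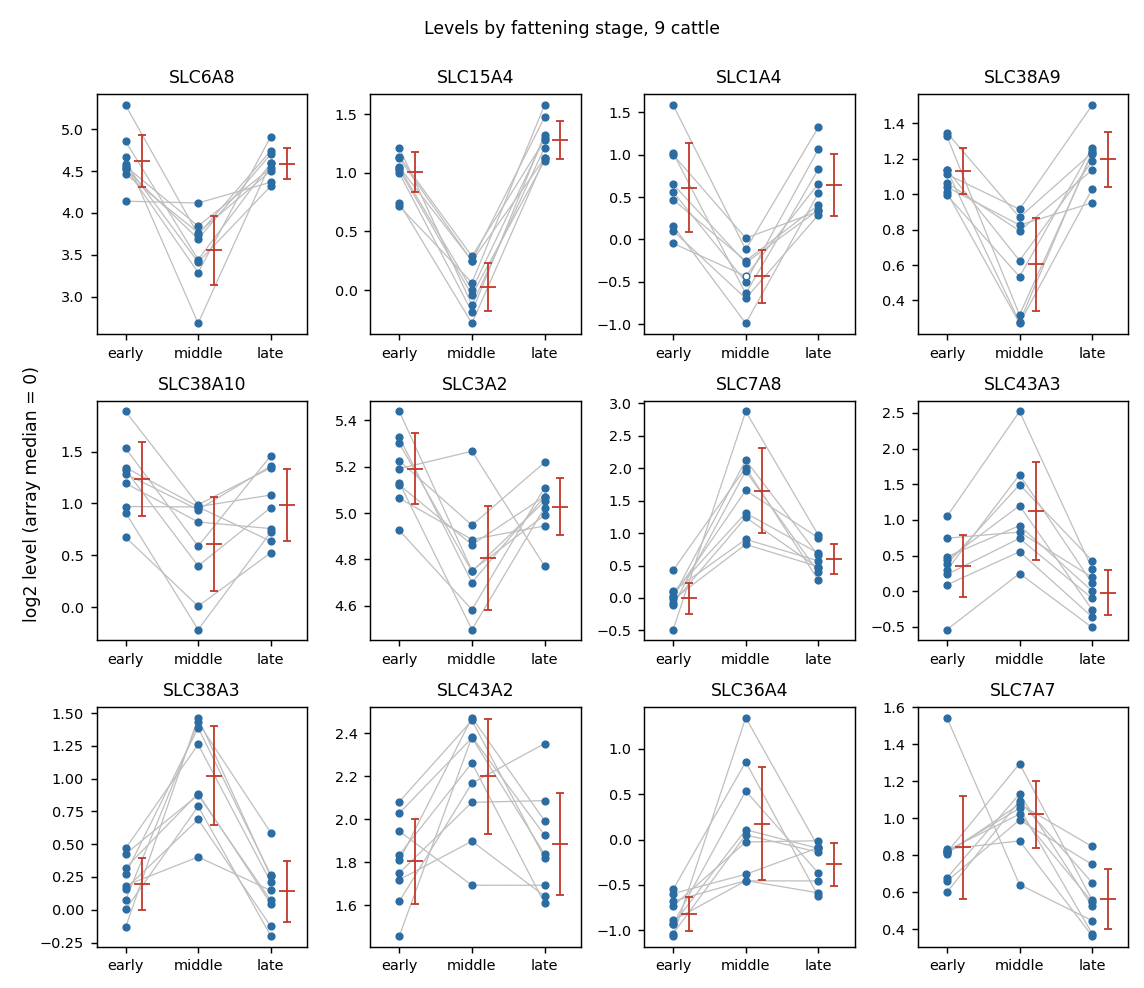
Log2 level (y axis, array median at 0) of 12 members by stage (x axis) in 9 cattle; grey lines join the arrays of an animal, open points were not well above background, and red bars give the mean and SD. SLC6A8 and SLC15A4 show middle-stage points below all others, and SLC7A8 middle-stage points above all early-stage points.

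SLC6A13 (GAT2), a carrier of GABA, taurine and betaine, was the detected member with the largest total-period rise. It had levels of −0.85 to −0.12 early (median −0.50), −0.42 to 1.03 in the middle stage (median 0.12) and 0.62 to 1.16 late (median 0.74). All late levels lay above all early levels. The changes were 0.71 ± 0.14 (adjusted *P* = 3.35e-04, 9 of 9 animals), 0.63 ± 0.14 (adjusted *P* = 7.56e-04, 8 of 9) and, over the total period, 1.33 ± 0.14 or 2.52-fold (adjusted *P* = 2.86e-06, 9 of 9). SLC6A12 (BGT1), whose probe lies 33.4 kb away on the same strand, was above background on 1 array. SLC6A4, the serotonin transporter, had levels of 2.24 to 3.80 early (median 3.00), 1.93 to 4.06 in the middle stage (median 2.82) and 2.99 to 4.05 late (median 3.39). The stages overlapped, but SLC6A4 was higher at the late than at the early stage in all 9 animals, by 0.51 ± 0.17 (adjusted *P* = 0.0383, lost without animal 1, 3, 6, 7 or 8), and by 0.64 ± 0.17 against the middle stage (adjusted *P* = 0.00225).

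SLC6A14, SLC6A20 and SLC6A9 passed in no comparison. SLC6A14 (ATB0,+), a concentrating carrier of neutral and cationic amino acids, had the widest spread, from −2.26 to 1.68 at the early stage, and changed by −0.39 ± 0.47, −0.43 ± 0.47 and −0.82 ± 0.47. It was above background on 9 early, 5 middle and 7 late arrays. SLC6A20, the proline carrier SIT1, changed by 0.07 ± 0.21, 0.44 ± 0.21 and 0.52 ± 0.21, the second passing without animal 2 or 5 and the third without animal 6. The probe named SLC6A9 (GlyT1, the glycine transporter) changed by 0.01 ± 0.10, −0.21 ± 0.10 and −0.20 ± 0.10, and its accession now belongs to LOC515755 in RefSeq, so its name is uncertain.

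Among the SLC36 members, SLC36A4 (PAT4), a high-affinity carrier of proline and tryptophan, had levels of −1.06 to −0.55 early (median −0.89), −0.45 to 1.34 in the middle stage (median 0.05) and −0.62 to −0.01 late (median −0.14). The early stage lay wholly below the middle stage, and the first-period change was 1.00 ± 0.19 (adjusted *P* = 2.00e-04, 9 of 9 animals). The second-period change of −0.45 ± 0.19 (adjusted *P* = 0.0438) and the total-period change of 0.55 ± 0.19 (adjusted *P* = 0.049997) lay at the threshold, the former lost without animal 3, 4, 7, 8 or 9 and the latter without animal 1, 2, 3, 5, 6, 7 or 8. Under cyclic loess scaling the second-period change turned to 0.30 (adjusted *P* = 0.0853). SLC36A2 (PAT2), a carrier of glycine and proline, was above background on 9, 7 and 6 arrays and had levels of −2.59 to −1.68 early (median −1.97), −2.07 to −0.61 in the middle stage (median −1.41) and −3.44 to −1.96 late (median −2.84). It was lower at the late stage in all 9 animals than at either other stage, by −1.26 ± 0.16 against the middle (adjusted *P* = 1.76e-06) and −0.75 ± 0.16 against the early stage (adjusted *P* = 0.00289). Members never above background changed by −1.61 to −0.83 in the second period. SLC36A2 lost its total-period call under 2 alternatives, normexp among them, and its second-period call under 1. Its first-period rise of 0.52 ± 0.16 (adjusted *P* = 0.00882) turned to −0.47 under cyclic loess scaling and was called lower there (adjusted *P* = 0.00946).

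Of the SLC38 members, SLC38A9, the lysosomal arginine sensor of mTORC1, had levels of 1.00 to 1.35 early (median 1.11), 0.27 to 0.91 in the middle stage (median 0.63) and 0.95 to 1.50 late (median 1.23). No middle-stage level reached the lowest level of another stage. All 9 animals fell in the first period (−0.53 ± 0.10, adjusted *P* = 2.34e-04) and rose in the second (0.59 ± 0.10, adjusted *P* = 5.24e-05). SLC38A10, a less studied member, fell in all 9 animals in the first period (−0.63 ± 0.12, adjusted *P* = 2.55e-04), with levels of 0.67 to 1.89 (median 1.28) at the early and −0.22 to 0.99 (median 0.82) at the middle stage, which overlapped. Its second-period change of 0.38 ± 0.12 (adjusted *P* = 0.0113) became 0.19 and was not called with 75th percentile scaling, and was not called without the animal block.

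SLC38A3 (SNAT3), a glutamine carrier, moved the other way. It had levels of −0.13 to 0.47 early (median 0.18), 0.40 to 1.46 in the middle stage (median 0.89) and −0.20 to 0.59 late (median 0.15). The middle stage overlapped the others slightly, and all 9 animals rose (0.82 ± 0.13, adjusted *P* = 2.69e-05) and then fell (−0.88 ± 0.13, adjusted *P* = 7.95e-06). SLC38A7 (SNAT7), a lysosomal glutamine exporter, was above background on 9, 6 and 9 arrays. Its changes were 0.56 ± 0.17 (adjusted *P* = 0.00690) and −0.54 ± 0.17 (adjusted *P* = 0.00795). Under cyclic loess scaling they turned to −0.42 (adjusted *P* = 0.021) and 0.55 (adjusted *P* = 0.00284), so both were called in the opposite direction. SLC38A2 (SNAT2), the amino acid carrier induced by amino acid shortage, and SLC38A6 passed in no comparison: SLC38A2 changed by −0.13 ± 0.10, 0.16 ± 0.10 and 0.03 ± 0.10 (95% interval of the last −0.17 to 0.23), and SLC38A6 by 0.05 ± 0.13, −0.07 ± 0.13 and −0.03 ± 0.13. SLC38A2 levels stayed between 5.53 and 6.31 on all 27 arrays.

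Both SLC43 members were higher at the middle stage. SLC43A3, which carries purine nucleobases rather than amino acids, had levels of −0.54 to 1.05 early (median 0.38), 0.25 to 2.52 in the middle stage (median 0.92) and −0.51 to 0.43 late (median 0.00). The stages overlapped, but within each of the 9 animals the middle stage was the highest, with changes of 0.77 ± 0.15 (adjusted *P* = 1.67e-04) and −1.15 ± 0.15 (adjusted *P* = 1.76e-06). SLC43A2 (LAT4), a uniporter of branched-chain amino acids and phenylalanine, changed by 0.39 ± 0.12 (adjusted *P* = 0.00889, 8 of 9 animals) and −0.31 ± 0.12 (adjusted *P* = 0.0286, 6 of 9 animals). The second-period call was lost without animal 1, 2, 3, 5 or 6.

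Within the first scan day, which held 9 early and 7 middle arrays, the first-period changes were −1.27 for SLC6A8, −1.15 for SLC1A4, −0.99 for SLC15A4, −0.58 for SLC38A9, −0.55 for SLC38A10, −0.42 for SLC3A2, 1.61 for SLC7A8, 0.93 for SLC36A4, 0.92 for SLC38A3, 0.91 for SLC43A3, 0.75 for SLC6A13, 0.85 for SLC1A7, 0.57 for SLC36A2 and 0.43 for SLC43A2, all of them called. The calls of SLC38A7 (0.46, adjusted *P* = 0.0638) and SLC15A2 (0.45, adjusted *P* = 0.0550) were lost there. In that subset 27 members were called higher and 6 lower, with 8593 of all 15008 probes called in either direction. Apart from 1 early array, the early and middle arrays of the subset lay on different slides, so it does not separate stage from slide. With slide as a fixed block all 16 first-period calls of detected members were lost. The 6 members called higher in that fit were never above background, and the 2 called lower were SLC1A5 (−1.58, adjusted *P* = 0.0473) and SLC7A5 (−2.25, adjusted *P* = 0.0182), with 1238 of all 15008 probes called. In slide 2 alone SLC1A5 changed by 0.21 and SLC7A5 by −0.10. The median SE over all probes was 0.67 with the fixed slide block, against 0.19 in the main fit. Within slide 2, with 1 early array, none was called, with 16 at an unadjusted *P* below 0.05 and 7 called among all 15008 probes.

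In the second period 43 of 57 members (75.4%) were called, against 71.5% of all probes, 10 of them higher (against 27%) and 33 lower (against 44.6%). The 10 that were higher were all detected members: SLC6A8, SLC1A4, SLC15A4, SLC38A9, SLC38A10, SLC1A5, SLC15A1, SLC6A4, SLC6A13 and SLC15A2. Of the 33 that were lower, 24 lacked such a stage. Called with a change of at least 2-fold were SLC15A4, SLC1A4 and SLC6A8 among the higher members (3 of 57, against 9.99% of all probes) and 24 lower members (against 29.0%), 4 of these detected.

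Over the total period 8 members (14.0%) were called, against 20.1% of all probes. SLC15A1, SLC15A2, SLC6A4, SLC6A13, SLC7A8 and SLC36A4 were higher, against 11.2% of all probes, and SLC1A7 and SLC36A2 were lower, against 8.93%. Of the 6 higher members, SLC15A1, SLC15A2 and SLC6A13 were the ones that no single left-out animal removed. At 2-fold or more, SLC6A13 and SLC15A2 were higher (against 1.32%) and SLC1A7 was lower (against 2.79%). With slide as a random block the counts were 1 higher and 1 lower, with 250 of all 15008 probes called in either direction.

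**Figure D4:**
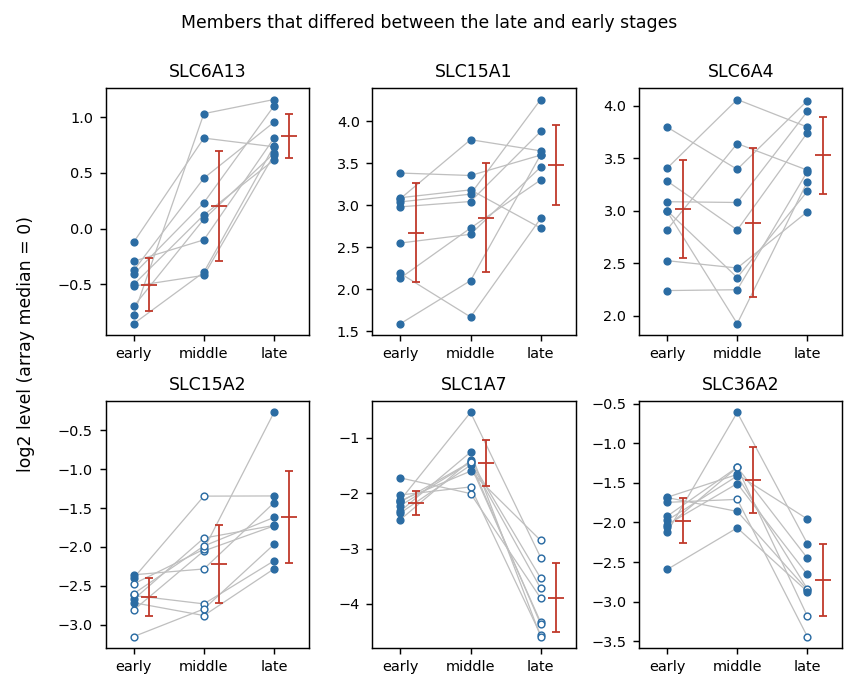
Log2 level (y axis, array median at 0) of 6 members by stage (x axis) in 9 cattle; grey lines join the arrays of an animal, open points were not well above background, and red bars give the mean and SD. Late-stage points of SLC6A13 and SLC15A2 lie above all early-stage points, and all 9 late-stage points of SLC1A7 are open.

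The members also varied among animals. After the stage means were removed, a median of 39.2% of the remaining variance lay between animals for the members and 38.4% for all probes. The share was 76.2% for SLC43A3, with animal 6 highest at the early and middle stages, and 74.4% for SLC38A10. SLC6A16, an orphan member of the SLC6 family chosen here after its values were seen, had 92.4%, a share reached by 15 of 14954 probes. In animals 1, 2, 3, 4, 5 and 9 its level lay between −0.67 and 1.14 at every stage and was above background on all 18 arrays. In animal 6 it was −1.55, −3.52 and −2.92, in animal 7 −3.16, −2.79 and −5.00, and in animal 8 −2.39, −2.96 and −3.10, in the order of the stages. The gap between these animals and the others was present at each stage. No stage comparison of SLC6A16 is drawn here.

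**Figure D5:**
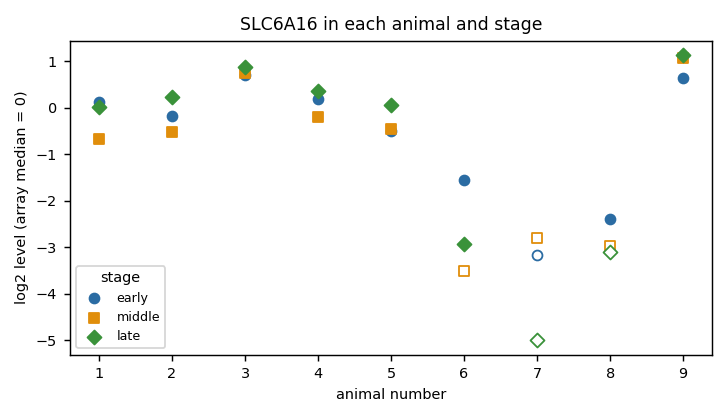
Log2 level of SLC6A16 (y axis, array median at 0) in each of the 9 animals (x axis) at the early, middle and late stages (symbols); open symbols were not well above background. Animals 6, 7 and 8 lie between −5.00 and −1.55 and the other animals between −0.67 and 1.14.

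Other genes of amino acid handling were taken from lists. Of 34 amino acid sensing genes on the array, 13 were called higher and 9 lower in the first period, 16 and 8 in the second and 4 and 2 over the total period. The shares of all probes called higher and lower, against which this list and the next 2 are to be read, were 45.3% and 21.3%, 27% and 44.6%, and 11.2% and 8.93%. For the sensing genes the counts came to 38.2% and 26.5%, 47.1% and 23.5%, and 11.8% and 5.88%. DDIT3 (CHOP), a transcription factor of the integrated stress response, was 1.28 ± 0.20 higher in the first period (adjusted *P* = 2.37e-05). KLF4, a transcription factor of epithelial differentiation rather than a sensor, fell by 1.67 and then rose by 2.06 (± 0.24 each, adjusted *P* = 1.30e-05 and 6.31e-07). CEBPB, a transcription factor of stress and differentiation, changed by −1.99 ± 0.21 in the second period (adjusted *P* = 1.72e-07) and by −0.96 ± 0.21 over the total period (adjusted *P* = 0.00297), with 9 early, 6 middle and 2 late arrays above background. EIF4EBP1, a translation repressor and mTORC1 substrate, was 0.80 ± 0.10 higher over the total period (adjusted *P* = 1.69e-05).

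Of 41 amino acid metabolism enzymes, 7 were called higher and 12 lower in the first period, 15 and 9 in the second and 4 and 3 over the total period, which came to 17.1% and 29.3%, 36.6% and 22.0%, and 9.76% and 7.32% of the list. The enzymes of proline moved in opposite directions in the first period: PYCR1, which makes proline, changed by −1.69 ± 0.20 (adjusted *P* = 1.45e-06) and PRODH, which degrades it, by 1.40 ± 0.21 (adjusted *P* = 2.04e-05). PYCR1 was above background on 9 early, 4 middle and 9 late arrays. ARG1, the urea-forming arginase, was 2.49 ± 0.29 higher in the second period (adjusted *P* = 5.37e-07) and 1.09 ± 0.29 higher over the total period (adjusted *P* = 0.0112). AHCY, which cleaves S-adenosylhomocysteine, changed by −1.45 ± 0.11 and −1.097 ± 0.113 in the same comparisons (adjusted *P* = 4.89e-09 and 1.54e-06).

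Of 13 transporters outside the family names and partner proteins, 5 were called higher and 3 lower in the first period, 1 and 6 in the second and 2 and 3 over the total period, which came to 38.5% and 23.1%, 7.69% and 46.2%, and 15.4% and 23.1% of the list. SLC16A10 (TAT1), a carrier of aromatic amino acids, was 0.60 ± 0.18 higher in the first period (adjusted *P* = 0.00736) and 0.84 ± 0.18 higher over the total period (adjusted *P* = 0.00295). It was above background on 9 early, 5 middle and 9 late arrays. LRRC8A, a subunit of the volume-regulated anion channel, exceeded background on none of the middle-stage arrays, which puts that stage at least 1.34-fold below the early (adjusted *P* = 9.95e-07) and at least 1.20-fold below the late stage (adjusted *P* = 1.44e-06). ANPEP, the peptidase that frees amino acids at the cell surface, changed by −0.89 ± 0.18 in the second period (adjusted *P* = 2.33e-04), and SLC7A6OS, named for its place opposite SLC7A6 and no transporter, by −0.88 ± 0.18 over the total period (adjusted *P* = 0.00192).

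Markers of other cells were summed by list on each array. The summed level of 6 fibroblast markers, in multiples of the array median, had a median of 277 (range 87.9 to 750) at the early, 457 (89.6 to 1021) at the middle and 287 (70.7 to 404) at the late stage. The 6 smooth muscle markers gave 96.2 (63.9 to 234), 200 (49.7 to 556) and 85.2 (72.6 to 122). At each stage only 3 of these 6 exceeded background in all 9 animals. The 4 red blood cell markers gave 60.8 (38.8 to 68.0), 140 (104 to 198) and 56.8 (44.8 to 90.0). Of these 4, only HBA exceeded background in all 9 animals at any stage, and the other 3 did so on no middle-stage array. The sums add levels of different probes, which are not comparable, so the brightest probes weigh most. The 14 stratified epithelium markers gave 4312 (3540 to 4735), 2463 (1078 to 4747) and 4458 (4199 to 5133). In the first period 6 of the 14 were called lower and 1 higher (42.9% and 7.14%, against 21.3% and 45.3% of all probes). In the second period 1 was called lower and 3 higher (7.14% and 21.4%, against 44.6% and 27% of all probes). The 12 leukocyte markers gave 54.0 (38.3 to 79.2), 50.4 (36.0 to 62.3) and 64.0 (45.0 to 81.4), and the 6 endothelium markers, of which CDH5 was above background on no array, 28.3 (21.0 to 37.6), 28.4 (15.9 to 50.9) and 28.1 (19.1 to 36.3). Called higher and lower in the first period were 1 and 1 fibroblast markers, 3 and 0 smooth muscle and 2 and 0 red blood cell markers. Leukocyte markers gave 4 and 2, and endothelium markers 1 and 1. In the second period the lists gave, in the same order, 1 and 3, 0 and 5, 0 and 2, 4 and 6, and 0 and 1. These counts are to be read against the same shares of all probes. The part of these cells in the changes of the transporters was not tested.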

How the data were processed

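RE biopsies of 9 Japanese Black cattle at 3 fattening stages were hybridized to 1-colour Agilent arrays, 27 in all. Per the labels and file headers, the authors scanned the arrays and made spot intensity values with Agilent Feature Extraction (version 9.5 in the submitters' processing notes, 11.0.1.1 in the file headers), and the deposited background-corrected intensity is not scaled between arrays. The deposited flags, other values of 0 or 1 per spot, mark spots well above background, saturated or outlying. The authors' deposited series matrix of log2 values equals the log2 processed intensity minus each array's 75th percentile to within 0.0207 plus a spread of at most 0.0286 (column medians −3.07 to −2.60), and it served as an alternative.

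Following the study's methods, the processed intensity was divided by the array median and taken to log2. Control spots were left out, 55 outlier values were set missing, and the 15110 remaining spots were averaged to 15008 probes. limma 3.58.1 in R 4.3.3 fitted a mean per stage with the animal as a block, with Benjamini-Hochberg adjustment over all probes. For the pairing, the number that ends each sample title was taken as the animal, which the titles do not state. Deviations from the stage means of the same animal correlated at a mean of 0.158, against −0.020 between different animals. The same-animal values ranged from −0.151 to 0.461, with 24 of 27 pairs above 0. The fit, the paired test and the random slide block were tested on simulated data. The number of arrays limits the precision.

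A member was named with values when all 9 arrays of some stage had it above background (1 such member is not reported here), and from the other lists the largest rise and fall per comparison among called and detected genes. For a stage with no array above background, the limit was the mean over its arrays of the higher of the probe's own level and the lowest level among probes above background. 42 of 57 members matched RefSeq by accession, 40 with the same symbol. Members and lists were chosen with earlier results of these data known. Alternatives covered scaling, background correction, dim and outlying spots, slide and scan day, the animal block, the methods' paired t-test and leaving out animals.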

Additional observations from a re-analysis of the deposited data

Results flagged for a closer look

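Among 81 groups of 9 arrays (27 detected members at 3 stages), 6 held an animal whose level stood apart from the other 8, with a gap to the nearest of them above 0.493 of the group's range. Chance flags about 1 in 20 groups. SLC1A5 was lowest in animal 9 at the middle stage (5.58, next 6.42) and at the late stage (6.60, next 7.09). SLC7A7 was highest in the same animal at the early stage (1.54, next 0.83). SLC7A5 was highest in animal 8 at the middle stage (0.69, next −0.54), SLC15A2 in animal 7 at the late stage (−0.27, next −1.35), and SLC36A2 was lowest in animal 6 at the early stage (−2.59, next −2.13). The causes were not tested.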

How the results depend on the processing

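The members that fell in the first period and rose in the second (SLC6A8, SLC1A4, SLC15A4, SLC38A9 and SLC38A10) kept their direction in both periods under every alternative run, and all lost their first-period call when slide was a fixed effect and in slide 2 alone. Of these, SLC38A10 also lost its second-period call under 7 alternatives. Of 1742 alternative values of the 26 detected members described, 1543 kept their direction and side of the threshold (values called neither way counted with them), 138 lost a call, 45 gained 1 and 16 turned sign. Members called higher in the first period numbered 5 under cyclic loess of bright probes, 11 under quantile normalization, 10 with dim probes left out, 6 with a fixed slide block and 0 within slide 2, against 32, and those called lower 15, with cyclic loess, 2 with the slide block and 0 within slide 2, against 6. In the second period 4 were higher with slide as a random block, against 10, and 8, 11 and 10 were lower with cyclic loess, quantile normalization and dim probes left out, against 33. Over the total period 3 were higher with 75th percentile scaling, the median of bright probes, quantile normalization or the series matrix and 1 with the random slide block, against 6, and 5, 6, 0, 5, 1 and 4 were lower with 75th percentile scaling, the median of bright probes, normexp, the series matrix, the random slide block and the methods' paired t-test, against 2. Of all 15008 probes, 7790 were called in the first period with cyclic loess and 7169 with quantile normalization, against 9986. In the second period 8758, 7920 and 7512 were called with cyclic loess, quantile normalization and the random slide block, against 10734. Over the total period 1194 were called with normexp, 2156 with quantile normalization and 4526 with the paired t-test, against 3019. The cause of the moved counts was not tested, except that leaving out dim probes removes 30 members from the test.

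Leaving out 1 animal gave 29 to 34 higher and 6 to 6 lower in the first period, 10 to 11 and 28 to 32 in the second, and 3 to 6 and 2 to 2 over the total period, with 3 higher without animal 1, 3 or 7. Without the pairing by animal (no replicate block) the counts were 31 and 6, 10 and 33, and 5 and 2. Without animals 4, 8 and 9, whose middle-stage arrays had the lowest shares of probes well above background (an alternative chosen after seeing the data), the counts were 25 and 6, 11 and 26, and 6 and 2. Signs turned in the first period under cyclic loess for SLC15A2 (−0.56), SLC1A7 (−0.26), SLC36A2 (−0.47), SLC38A7 (−0.42), SLC6A9 (−0.29) and SLC7A5 (−0.79), under quantile normalization for SLC15A2 (−0.0568), and with slide as a fixed block for SLC15A2 (−0.13), SLC1A7 (−0.48), SLC3A2 (0.21) and SLC7A5 (−2.25). In the second period they turned under cyclic loess for SLC36A4 (0.30) and SLC38A7 (0.55), and under normexp for SLC15A2 (−0.10), SLC38A6 (0.17) and SLC43A2 (0.0727). Among the turned values, those of SLC15A2, SLC36A2, SLC38A7, SLC6A9 and SLC7A5 in the first period under cyclic loess were called. Also called were SLC7A5 with the slide block, SLC38A7 in the second period under cyclic loess and SLC38A6 under normexp. The other turned values were not called. Each member had 1 probe, so another choice of probe was void. Signal over background limited 30 members.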
